A study of Homo sapiens with 8 samples.

Results

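The genes described here are 32 members of the p53 pathway other than CDKN1A, chosen by symbol from the 26830 gene rows of a poly(A) RNA-seq table. All 32 are in the table, and 31 of them passed the filter on low values (at least 1 TPM in at least 2 libraries), as did 14302 genes in all. The table covers 8 libraries of NOMO-1 and MOLM-13, both lines from human acute myeloid leukaemia with an MLL fusion. In each line, cells transduced with a lentivirus for 1 short hairpin RNA against ALKBH5 (shALKBH5, labelled #1), an eraser of the m6A mark on RNA, were set against cells with the non-silencing hairpin shNS, and each of the 4 groups has 2 libraries. All groups went through lentiviral infection and puromycin selection, for 4 days in the series design text and for 1 week in the sample protocols. Those protocols also name a virus against FTO and treatment with CS1, CS2 or DMSO, which no sample label lists. Each group is 1 hairpin in 1 line, and the labels do not say whether its 2 libraries are separate cultures. The p-values therefore reflect library-to-library spread alone, and this may be technical.

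The transcription factor p53 is held low by MDM2, a ubiquitin ligase that marks it for degradation, and by the related MDM4. When DNA damage or other stress frees it, p53 binds DNA elements near its target genes and raises genes that halt the cell cycle, repair DNA, alter metabolism or promote cell death. MDM2 is itself such a target, which closes a feedback loop.

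Values are TPM, the length-scaled share of transcripts in a library, so levels can be compared between genes, and depth is unknown. Pairs of values follow the replicate numbers: 1 and 3 for NOMO-1 shNS, 2 and 3 for NOMO-1 shALKBH5, and 1 and 3 for both MOLM-13 groups. Log2 fold changes are differences of log2(TPM + 1), which understate changes of low genes, and the threshold is a limma adjusted p under 0.05. ALKBH5 went from 70.4 and 71.8 TPM to 15.1 and 14.2 TPM in NOMO-1 and from 45.7 and 45.8 TPM to 9.45 and 7.35 TPM in MOLM-13 (log2 fold changes -2.21 and -2.32, adjusted p = 0.00032 and 0.00019). The myeloid genes CD33 (65.3 to 129 TPM), SPI1 (120.2 to 377 TPM) and CEBPA (196 to 308 TPM) were present in every library, while MPO stayed at 0.48 TPM or less in NOMO-1. The B cell gene MS4A1 and the epithelial gene EPCAM were listed at 0 throughout. Over the whole lists, the summed level of 8 erythroid genes was 0.13 to 0.48 TPM apart from 14.1 TPM in MOLM-13 shALKBH5 replicate 3 (HBB at 14 TPM). It was 1.11 to 11.3 TPM for 6 lymphoid genes and 0.45 to 2.34 TPM for 5 epithelial genes, with 6 or 7 erythroid and 2 or 3 of the lymphoid and of the epithelial genes at 0 in each library.

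The 2 MOLM-13 shALKBH5 libraries stood apart from each other. Over members of at least 10 TPM on average, the log2 difference between the 2 libraries had an SD of 0.458 there, against 0.0857 in MOLM-13 shNS, 0.106 in NOMO-1 shALKBH5 and 0.11 in NOMO-1 shNS. In MOLM-13 shALKBH5 replicate 1 the median of 10 interferon-stimulated genes was 71 TPM, against 1.72 TPM in replicate 3 and 4.28 and 3.62 TPM in the controls. Structural RNAs such as RN7SK summed to 4540 TPM in replicate 1 and 9260 TPM in replicate 3, and to no more than 520 TPM elsewhere. The 8 myeloid genes summed to 1270 and 1300 TPM in NOMO-1 shNS and 2990 and 2920 TPM after knockdown, and to 10300 and 9770 TPM in MOLM-13 shNS and 20400 and 13200 TPM after knockdown. LYZ and CD68 make up most of these sums and rose in both lines, while CD33 and CEBPA fell in NOMO-1, and in MOLM-13 ITGAM fell and MPO fell from 384 and 456 TPM to 19.3 and 16.4 TPM. The part of these genes in the results was not tested, and the MOLM-13 median changes are given with and without each library. In bulk RNA, fewer cells of a type and less RNA per cell cannot be told apart.

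**Figure D1:**
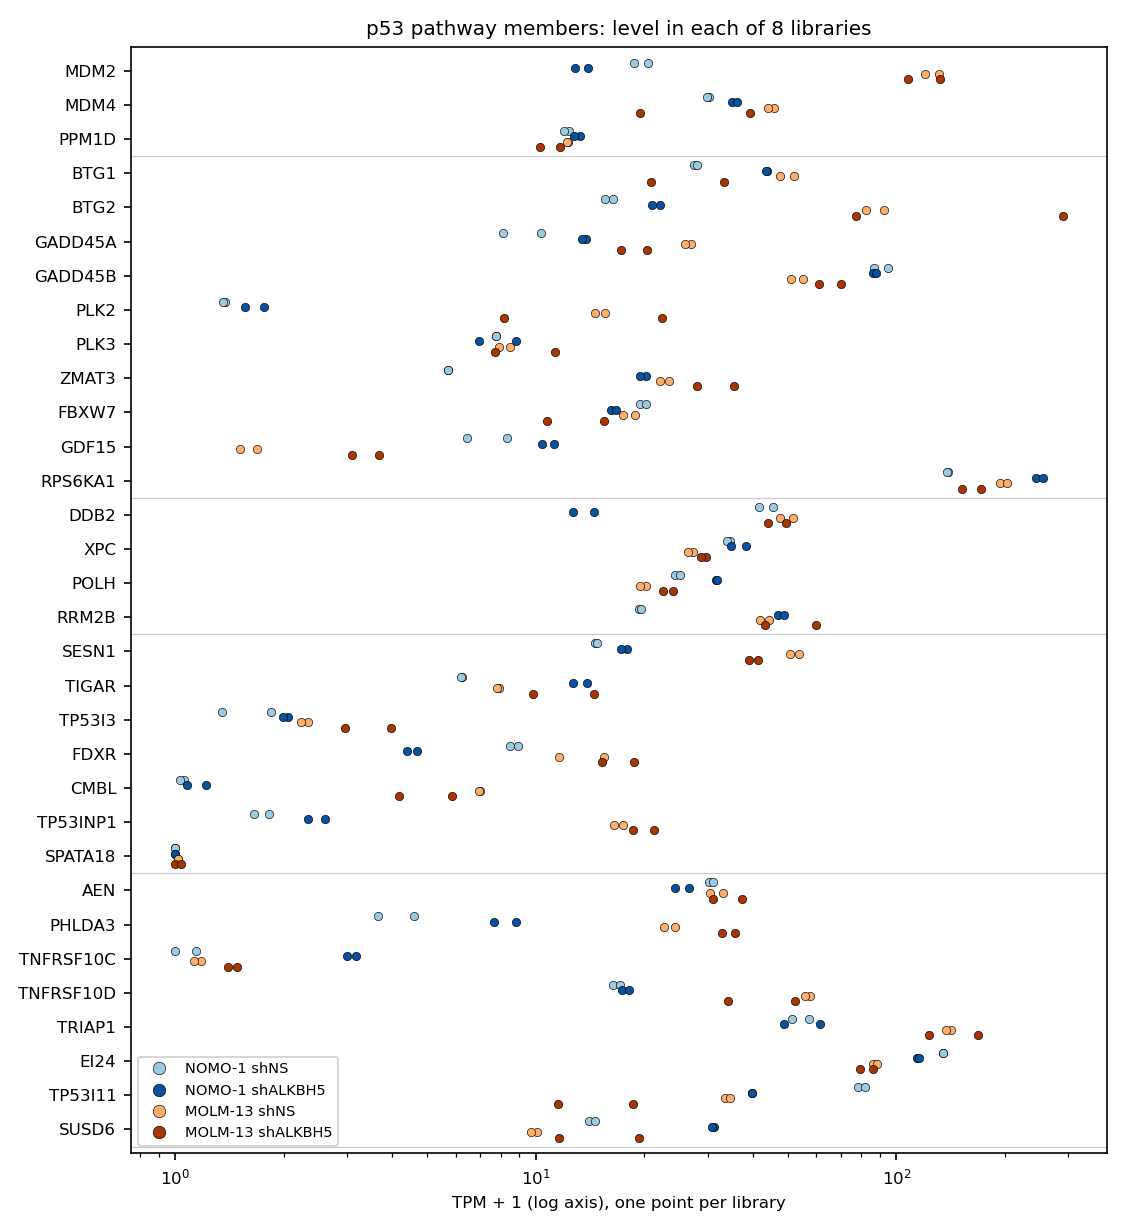
Level of each of the 32 members in the 8 libraries, as TPM + 1 on a log axis, 1 point per library, coloured by group and separated by role. MDM2, PLK2, CMBL, TP53INP1 and PHLDA3 show the widest gaps between the lines, and BTG2 the widest gap between the 2 MOLM-13 shALKBH5 libraries (288 and 76.4 TPM).

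The control libraries show how far these genes differ between the lines before any knockdown. Of the 31 members tested, 15 were higher in MOLM-13 and 6 in NOMO-1, while over all genes tested 19.2% were higher in MOLM-13 and 40.6% in NOMO-1, 59.8% in all. The 15 include PLK2 and CMBL, which passed the filter through MOLM-13 alone, so their entry into the test rested on the line where they are high. They were also called without a filter beyond a value above 0. Leaving them aside, 13 members were higher in MOLM-13. The 2 control groups did not overlap for 20 members higher in MOLM-13 (31.6% of all genes) and 8 higher in NOMO-1 (57.9% of all genes). The median difference (NOMO-1 minus MOLM-13) was -0.53 for the members and 0.29 for all genes. CDKN1A, the cell cycle inhibitor p21, which is not a member, had 25.5 and 27.8 TPM in NOMO-1 shNS and 483 and 507 TPM in MOLM-13 shNS, 18.6 times higher there (log2 difference -4.16, adjusted p = 2.4e-05). In the other direction CDKN2A, whose locus encodes an inhibitor of MDM2, had 87.6 and 96.8 TPM in NOMO-1 and 0.08 and 0 TPM in MOLM-13. With median-of-ratios scaling the median of all genes was 0.03 and the members called were 20 and 4, beside 31.5% and 34.4% of all genes. The 15 members higher in MOLM-13 and 4 of the 6 higher in NOMO-1 passed under the deposited, median-of-ratios and quantile scalings alike. XPC and POLH were the exceptions.

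**Figure D2:**
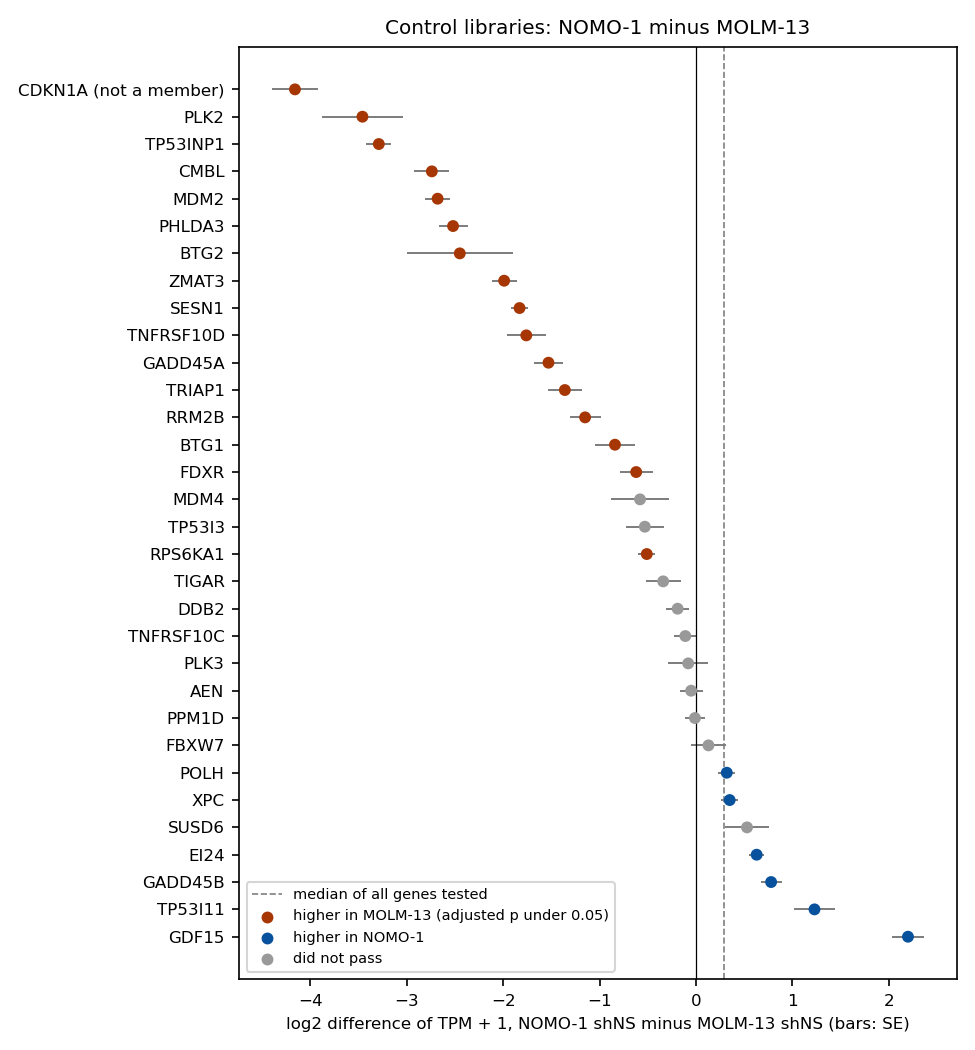
Log2 difference of TPM + 1 between control libraries, NOMO-1 shNS minus MOLM-13 shNS, for the 31 members tested and for CDKN1A, with SE bars and the median of all genes tested (0.29) as a dashed line. The points run from -3.46 for PLK2 to 2.2 for GDF15 among the members, with CDKN1A at -4.16.

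After knockdown in NOMO-1, 12 of the 31 members were higher and 4 lower, where 28.6% of all genes tested were higher and 15% lower, 43.6% in all. The 12 include TNFRSF10C, which passed the filter through the knockdown libraries alone and is high there, and without it 11 were higher. Without overlap between the groups, 21 members were higher and 7 lower, beside 52.1% and 30.5% of all genes. Those that rose were ZMAT3, TNFRSF10C, RRM2B, SUSD6, TIGAR, PHLDA3, RPS6KA1, BTG1, GADD45A, GDF15, TP53INP1 and POLH, and those that fell were DDB2, TP53I11, FDXR and MDM2. The members' median change was 0.26, and that of all genes was 0.16. With median-of-ratios scaling, which put the median of all genes at 0, the counts were 8 higher and 8 lower, with 23.7% of all genes higher and 26% lower. Leaving TNFRSF10C aside, BTG1, ZMAT3, RPS6KA1, RRM2B, TIGAR, PHLDA3 and SUSD6 rose and MDM2, DDB2, FDXR and TP53I11 fell under all 3 scalings. GADD45A, GDF15, TP53INP1 and POLH did not pass under median-of-ratios or quantile scaling. With any 1 library left out, the members' median change was 0.23 to 0.29, beside 0.14 to 0.17 for all genes. Several of the calls ended without 1 NOMO-1 library.

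In MOLM-13 the knockdown left 4 members higher (GDF15, TIGAR, PHLDA3, ZMAT3) and 5 lower (TP53I11, BTG1, GADD45A, SESN1, RPS6KA1), where 10.6% of all genes were higher and 31.2% lower, 41.8% in all. Without overlap, 11 members were higher and 10 lower, beside 21.3% and 46.2% of all genes. Their median change was 0.1 and that of all genes -0.18. With median-of-ratios scaling, under which the median of all genes was 0.03, the counts were 14 higher and 2 lower, with 24.1% of all genes higher and 26.4% lower. The 10 members that were higher under this scaling but not on the deposited scale were GADD45B, PLK3, XPC, POLH, RRM2B, TP53I3, AEN, TNFRSF10C, TRIAP1 and SUSD6 (0.34 to 0.88). TNFRSF10C, which passed the filter through NOMO-1 shALKBH5 alone, was at 0.48 TPM or less in MOLM-13. Under all 3 scalings GDF15, TIGAR, PHLDA3 and ZMAT3 rose and BTG1 and TP53I11 fell. Without shALKBH5 replicate 1 the members' median change was -0.13 (all genes -0.33), and without replicate 3 it was 0.19 (all genes -0.06). Without control replicate 1 or 3 it was 0.07 or 0.1 (all genes -0.19 or -0.18), and most of the calls ended. Fitted without the NOMO-1 libraries, MOLM-13 had 1 member higher (GDF15) and 0 lower by limma, beside 2.68% and 9.09% of all genes. At an unadjusted p under 0.05 the members were 4 and 4.

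**Figure D3:**
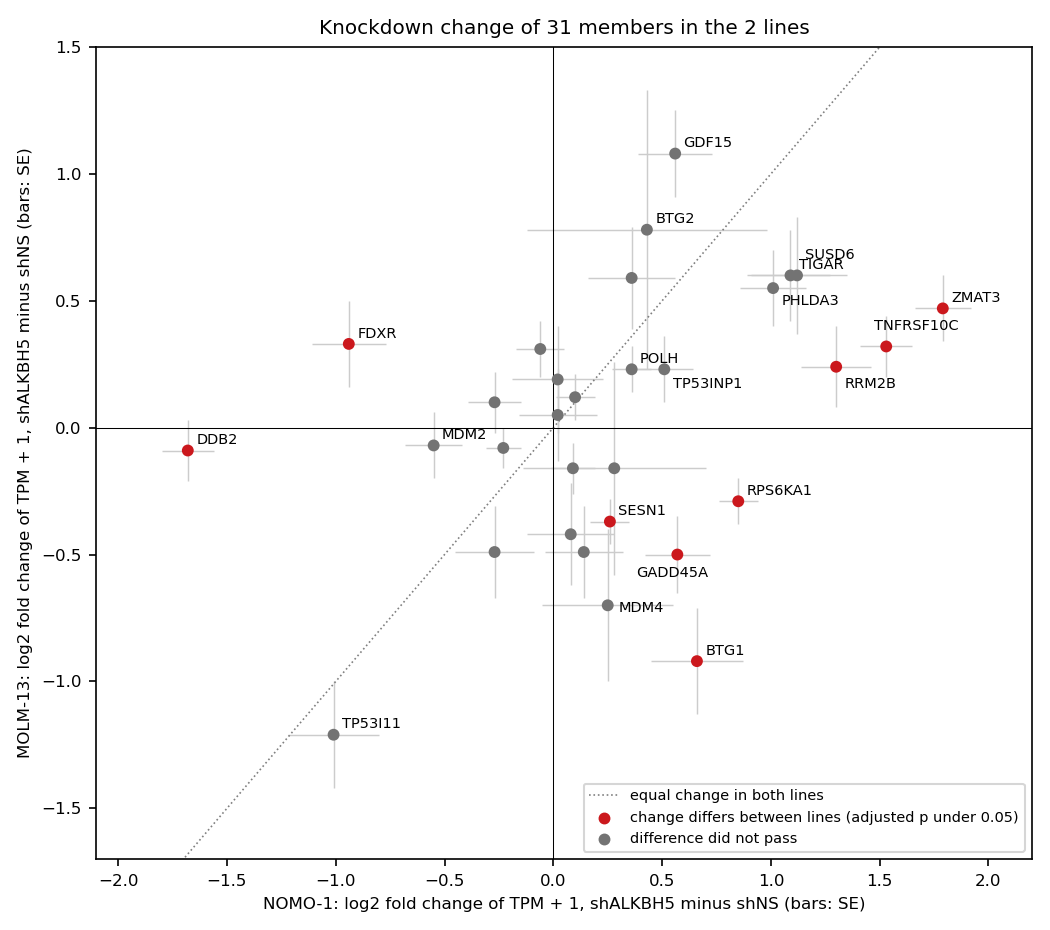
Knockdown change (log2 fold change of TPM + 1 with SE bars) of the 31 tested members, NOMO-1 on the horizontal and MOLM-13 on the vertical axis, with the 9 members whose change differed between the lines in red and a dotted line of equal change. DDB2 and FDXR lie left of the dotted line, ZMAT3, TNFRSF10C, RRM2B, RPS6KA1, GADD45A, SESN1 and BTG1 right of it, and TP53I11 near it.

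Among the inhibitors of p53, MDM2 (chromosome 12, 68808176 to 68850686, GRCh38) was at 19.5 and 17.7 TPM in NOMO-1 shNS and fell to 11.8 and 13 TPM, 1.5 times lower (log2 fold change -0.55, SE 0.13, adjusted p = 0.017). In MOLM-13 it had 130.2 and 119 TPM in the controls and 131 and 107 TPM after knockdown, groups that overlap (-0.07, adjusted p = 0.7). Its control level was thus 6.71 times higher in MOLM-13 (-2.68, adjusted p = 1.2e-05). The MDM2 call in NOMO-1 ended without any 1 of the 4 NOMO-1 libraries (adjusted p = 0.056 to 0.11).

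MDM4 had 29.1 and 28.9 TPM against 34.1 and 35.1 TPM in NOMO-1 (0.25, adjusted p = 0.55) and 44.7 and 43.2 TPM against 38.3 and 18.5 TPM in MOLM-13 (-0.7, adjusted p = 0.11). The low value is that of replicate 3, and the groups do not overlap in either line. Without replicate 3 the MOLM-13 change was -0.19 (adjusted p = 0.021), and without replicate 1 it was -1.21 (adjusted p = 3.6e-05). PPM1D, a phosphatase that switches off damage signalling to p53, was nearly level over all 8 libraries, from 9.28 to 12.2 TPM, and passed in no comparison on the deposited scale (between controls it did with median-of-ratios scaling, at -0.29). The 95% interval of its change was -0.16 to 0.35 in NOMO-1 and -0.41 to 0.09 in MOLM-13.

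Of the 10 antiproliferative, checkpoint and signalling genes, 5 rose in NOMO-1 (28.6% of all genes), and 2 rose and 3 fell in MOLM-13 (10.6% and 31.2% of all genes). With median-of-ratios scaling BTG1, ZMAT3 and RPS6KA1 rose and GADD45B and FBXW7 fell in NOMO-1 (23.7% and 26% of all genes). Under it GADD45B, PLK3, ZMAT3 and GDF15 rose and BTG1 fell in MOLM-13 (24.1% and 26.4% of all genes). ZMAT3, a zinc finger protein that binds RNA, had 4.71 TPM in both shNS libraries and 19.2 and 18.4 TPM in shALKBH5, 3.99 times higher (1.79, SE 0.13, adjusted p = 0.00042). In MOLM-13 it stood at 22.4 and 21.1 TPM and went to 34.6 and 26.9 TPM (0.47, adjusted p = 0.032). On the deposited scale the NOMO-1 knockdown libraries thus lie just under the MOLM-13 controls, and the NOMO-1 controls 4.61 times under them. With median-of-ratios scaling the gap was wider, the control difference being -2.26 and the NOMO-1 change 1.56.

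BTG1 and BTG2 are related antiproliferative proteins that bind the deadenylase complex. BTG1 rose from 26.5 and 27 TPM to 42.9 and 42.6 TPM in NOMO-1 (0.66, adjusted p = 0.045) and fell from 50.9 and 46.5 TPM to 32.2 and 19.9 TPM in MOLM-13 (-0.92, adjusted p = 0.015). The groups do not overlap in either line, and the direction is opposite. BTG2 had 14.5 and 15.4 TPM against 19.9 and 21.1 TPM in NOMO-1 (0.43, adjusted p = 0.57). In MOLM-13 it had 91.3 and 81.5 TPM in the controls and 288 and 76.4 TPM after knockdown, so that only replicate 1 was high (0.78, adjusted p = 0.3). This pair of libraries also sets the spread used for BTG2 in NOMO-1.

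GADD45A and GADD45B belong to one family of stress sensors. GADD45A rose from 7.13 and 9.36 TPM to 12.8 and 12.4 TPM in NOMO-1 (0.57, adjusted p = 0.024) and fell from 25.9 and 25 TPM to 16.2 and 19.4 TPM in MOLM-13 (-0.5, adjusted p = 0.038). With median-of-ratios scaling neither change passed (0.36 and -0.22). GADD45B had 85.5 and 94 TPM against 84.9 and 86.9 TPM in NOMO-1 (-0.06, adjusted p = 0.7) and went from 49.9 and 54.1 TPM to 69.3 and 60.1 TPM in MOLM-13 (0.31, adjusted p = 0.064). With median-of-ratios scaling it passed as lower in NOMO-1 (-0.28) and higher in MOLM-13 (0.6). Its control level was higher in NOMO-1 (0.78, adjusted p = 0.0012), the reverse of GADD45A (-1.53, adjusted p = 0.00023).

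PLK2, a polo-like kinase, passed the filter only through MOLM-13. It had 0.37 and 0.36 TPM in NOMO-1 shNS and 0.76 and 0.56 TPM in shALKBH5, against 14.5 and 13.6 TPM in MOLM-13 shNS and 21.3 and 7.17 TPM after knockdown. The 2 MOLM-13 knockdown libraries lie on either side of the controls (-0.16, adjusted p = 0.81). Without replicate 3 PLK2 was called higher at 0.57, and without replicate 1 it was called lower at -0.88. Its relative PLK3 stayed between 5.97 and 10.3 TPM in every library and passed in no comparison on the deposited scale, but was higher in MOLM-13 with median-of-ratios scaling (0.45, adjusted p = 0.042). FBXW7, a ubiquitin ligase subunit that targets MYC and cyclin E, was at -0.27 (adjusted p = 0.26; with median-of-ratios scaling -0.47, adjusted p = 0.0054) in NOMO-1 and -0.49 (adjusted p = 0.065) in MOLM-13.

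GDF15, a secreted stress cytokine, rose in both lines. It went from 5.44 and 7.33 TPM to 10.3 and 9.39 TPM in NOMO-1 (0.56, adjusted p = 0.036) and from 0.69 and 0.51 TPM to 2.67 and 2.09 TPM in MOLM-13 (1.08, SE 0.17, adjusted p = 0.004), 3.97 times higher. Its control level was 10.6 times higher in NOMO-1, against the direction of most members. RPS6KA1, a kinase downstream of ERK, rose from 138 and 138 TPM to 243 and 254 TPM in NOMO-1 (0.85, SE 0.09, adjusted p = 0.0011). In MOLM-13 it was lower, at 171 and 151 TPM against 193 and 201 TPM (-0.29, adjusted p = 0.0499), a call that median-of-ratios scaling took to 0 (adjusted p = 0.98).

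Of the 4 DNA repair genes, 2 rose and 1 fell in NOMO-1 (28.6% and 15% of all genes), while the 4 MOLM-13 changes ran from -0.09 to 0.24 and did not pass. With median-of-ratios scaling XPC (0.41), POLH (0.52) and RRM2B (0.53) passed as higher in MOLM-13. DDB2, the damage-binding subunit that opens nucleotide excision repair of ultraviolet lesions, had 40.6 and 44.4 TPM in shNS and 11.7 and 13.5 TPM in shALKBH5, 3.38 times lower (-1.68, SE 0.12, adjusted p = 0.00038). In MOLM-13 it had 46.6 and 50.8 TPM against 48.5 and 42.9 TPM, and the groups overlap (-0.09, adjusted p = 0.59). The DDB2 control levels of the 2 lines did not differ past the threshold (-0.19, adjusted p = 0.21, 95% interval -0.48 to 0.1; with median-of-ratios scaling -0.49, adjusted p = 0.0056) and only the 2 NOMO-1 knockdown libraries were low. XPC, which recognises damage in the same repair pathway, had 33.5 and 32.9 TPM against 33.9 and 37.4 TPM in NOMO-1 (0.1, adjusted p = 0.44, interval -0.13 to 0.32) and 26.2 and 25.4 TPM against 28.7 and 27.7 TPM in MOLM-13 (0.12, adjusted p = 0.34).

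RRM2B, the p53-induced subunit of ribonucleotide reductase, rose 2.54 times in NOMO-1, from 18.4 and 18.6 TPM to 46 and 47.8 TPM (1.3, SE 0.16, adjusted p = 0.0015). Its MOLM-13 values were 43.4 and 40.9 TPM in the controls and 58.8 and 42.2 TPM after knockdown (0.24, adjusted p = 0.28). POLH, a polymerase that copies past ultraviolet damage, went from 23.4 and 24.1 TPM to 30.6 and 30.8 TPM in NOMO-1 (0.36, adjusted p = 0.02) and from 19.2 and 18.5 TPM to 23.1 and 21.6 TPM in MOLM-13 (0.23, adjusted p = 0.08). The NOMO-1 change of POLH did not pass with median-of-ratios scaling (0.14).

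Of the members whose start-site windows hold the p53 decamer, those that passed in a knockdown on the deposited scale are shown. They are DDB2 and FDXR, both of which fell in NOMO-1 only, and SESN1, which fell in MOLM-13 only. RefSeq gives 2 start-site windows for DDB2, 2 for FDXR and 3 for SESN1, and the others of these genes hold none. This consensus is 3 purines, C, A or T, A or T, G and 3 pyrimidines, its own reverse complement, so 1 search covers both strands. The windows are from RefSeq (GRCh38.p14). Each runs from 250 bases before the start site through the first 30 bases of the transcript, 5′ to 3′ along the gene's strand, with the decamer in capitals.
DDB2 chr11:47214724-47215003, plus strand: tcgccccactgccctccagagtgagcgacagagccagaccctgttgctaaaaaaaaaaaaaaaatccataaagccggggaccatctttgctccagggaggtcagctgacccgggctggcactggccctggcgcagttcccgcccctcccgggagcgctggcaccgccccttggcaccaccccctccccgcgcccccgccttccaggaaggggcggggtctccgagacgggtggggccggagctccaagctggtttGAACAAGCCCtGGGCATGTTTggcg
FDXR chr17:74872965-74873244, minus strand: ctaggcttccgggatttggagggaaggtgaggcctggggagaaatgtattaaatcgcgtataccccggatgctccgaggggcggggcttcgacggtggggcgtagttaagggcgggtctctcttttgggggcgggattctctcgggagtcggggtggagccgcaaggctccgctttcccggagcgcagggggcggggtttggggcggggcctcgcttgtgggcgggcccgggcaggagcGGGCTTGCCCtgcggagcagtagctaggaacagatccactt
SESN1 chr6:109008959-109009238, minus strand: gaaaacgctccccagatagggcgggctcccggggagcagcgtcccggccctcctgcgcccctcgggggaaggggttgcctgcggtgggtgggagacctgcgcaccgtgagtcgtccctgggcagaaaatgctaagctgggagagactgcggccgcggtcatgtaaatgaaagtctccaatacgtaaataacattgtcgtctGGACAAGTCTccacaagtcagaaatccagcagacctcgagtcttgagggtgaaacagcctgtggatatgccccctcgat
The search itself ran over 300 bases, 250 before and 50 after the start. Only this DDB2 window, of 39 such windows found for 25 of the members, holds 2 decamers within 13 bases of each other. They are GAACAAGCCC and GGGCATGTTT, 1 base apart, just downstream of the start; a p53 element at this place in DDB2 is known. FDXR holds GGGCTTGCCC and SESN1 GGACAAGTCT, each upstream of the start. PLK2, EI24 and AEN have 1 decamer each as well and are not shown, having passed in neither knockdown on the deposited scale. With median-of-ratios scaling SESN1 did not pass in MOLM-13 (-0.08), while AEN (-0.47) and EI24 (-0.44) passed as lower in NOMO-1. Windows with a decamer were 6 of 39 for the members (15.4%) and 6.63% of the 35116 RefSeq windows, and windows with 2 within 13 bases were 0.0285% of all. Known p53 elements of MDM2 and CDKN1A lie in an intron or further upstream, so this search describes these windows alone, and a match is not a bound site.

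Of the 6 tested metabolic members, 2 rose and 1 fell in NOMO-1 (28.6% and 15% of all genes), and 1 rose and 1 fell in MOLM-13 (10.6% and 31.2%). FDXR, a mitochondrial reductase that feeds electrons to steroid and iron-sulphur cluster synthesis, fell from 7.48 and 7.92 TPM to 3.4 and 3.67 TPM in NOMO-1, 2.18 times lower (-0.94, SE 0.17, adjusted p = 0.0063). In MOLM-13 it had 10.6 and 14.5 TPM against 14.3 and 17.7 TPM, with overlapping groups (0.33, adjusted p = 0.17). TIGAR, a phosphatase that lowers glycolytic flux, rose in both lines, from 5.26 and 5.19 TPM to 12.8 and 11.7 TPM in NOMO-1 (1.09, SE 0.18, adjusted p = 0.0047) and from 6.92 and 6.83 TPM to 13.5 and 8.85 TPM in MOLM-13 (0.6, adjusted p = 0.041).

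SESN1, a stress-induced inhibitor of mTORC1 signalling, had 13.6 and 13.8 TPM against 16.9 and 16.2 TPM in NOMO-1 (0.26, adjusted p = 0.061) and fell from 52.6 and 49.6 TPM to 38.1 and 40.4 TPM in MOLM-13 (-0.37, adjusted p = 0.019). With median-of-ratios scaling the MOLM-13 value was -0.08 (adjusted p = 0.67). TP53INP1, a stress protein of autophagy and p53 signalling, was among the members that separated the lines most, at 0.65 and 0.82 TPM in NOMO-1 shNS and 15.4 and 16.5 TPM in MOLM-13 shNS (-3.29, SE 0.13, adjusted p = 4.5e-06). It rose to 1.33 and 1.6 TPM in NOMO-1 (0.51, adjusted p = 0.019) and was at 17.6 and 20.3 TPM in MOLM-13 (0.23, adjusted p = 0.19).

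CMBL, a hydrolase, was at 0.06 and 0.03 TPM in NOMO-1 shNS, at 0.08 and 0.22 TPM in shALKBH5 and at 6 and 5.94 TPM in MOLM-13 shNS, so that it passed the filter through MOLM-13 alone; it had 3.18 and 4.86 TPM after knockdown there (-0.49, adjusted p = 0.065). TP53I3, an oxidoreductase tied to reactive oxygen, ranged from 0.35 to 2.97 TPM, with a change of 0.36 in NOMO-1 (adjusted p = 0.2) and 0.59 in MOLM-13 (adjusted p = 0.057). SPATA18, a regulator of mitochondrial quality, failed the filter, being listed at 0 in the 4 NOMO-1 libraries and at 0.04 TPM or less in MOLM-13.

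Of the 8 death and survival genes, 3 rose (TNFRSF10C among them) and 1 fell in NOMO-1, and 1 rose and 1 fell in MOLM-13, against the same shares of all genes. PHLDA3, which competes with AKT for membrane lipids, rose in both lines. It went from 2.64 and 3.6 TPM to 7.84 and 6.64 TPM in NOMO-1 (1.01, SE 0.15, adjusted p = 0.0029) and from 21.7 and 23.3 TPM to 31.9 and 34.7 TPM in MOLM-13 (0.55, adjusted p = 0.028). In each line the PHLDA3 knockdown libraries lie above both controls, and MOLM-13 controls are 7.21 times above NOMO-1 controls. SUSD6, a membrane protein, rose from 13.1 and 13.6 TPM to 30.2 and 29.9 TPM in NOMO-1 (1.12, adjusted p = 0.0091) and was at 18.3 and 10.6 TPM against 9.09 and 8.71 TPM in MOLM-13 (0.6, adjusted p = 0.077).

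TNFRSF10C and TNFRSF10D are decoy receptors for the death ligand TRAIL. TNFRSF10C had 0.14 and 0 TPM in NOMO-1 shNS and 2.17 and 2 TPM in shALKBH5 (log2 difference 1.53). It passed the filter through this knockdown group alone, which is also where it is high, so no adjusted p is given for it, though the counts of calls include it. TNFRSF10C stayed at 0.48 TPM or less in MOLM-13. TNFRSF10D had 15.4 and 16.2 TPM against 16.3 and 17.1 TPM in NOMO-1 (0.08, adjusted p = 0.79). In MOLM-13 it had 56.6 and 54.8 TPM against 51.4 and 33 TPM (-0.42, adjusted p = 0.13).

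TP53I11, a p53-inducible membrane protein, was the 1 member that fell in both lines, from 77.2 and 80.6 TPM to 38.8 and 38.7 TPM in NOMO-1 (-1.01, SE 0.21, adjusted p = 0.011) and from 32.4 and 33.6 TPM to 17.6 and 10.6 TPM in MOLM-13 (-1.21, SE 0.21, adjusted p = 0.0062). AEN, an apoptosis-linked nuclease, had 29.2 and 30 TPM against 23.3 and 25.7 TPM in NOMO-1 (-0.27, adjusted p = 0.13) and ranged from 29.5 to 36.4 TPM in MOLM-13. TRIAP1, a mitochondrial lipid-transfer partner that restrains apoptosis, had 50.4 and 56.1 TPM against 47.9 and 60.3 TPM in NOMO-1 and 141 and 136 TPM against 167 and 122 TPM in MOLM-13, with overlapping groups in each line. Its control level was 2.6 times higher in MOLM-13 (-1.36, adjusted p = 0.00088). EI24, an endoplasmic reticulum protein of autophagy, had 134 TPM in both NOMO-1 controls and 113 and 115 TPM after knockdown (-0.23, adjusted p = 0.072), and 84.9 and 87.5 TPM against 84.9 and 78.5 TPM in MOLM-13. With median-of-ratios scaling AEN and EI24 passed in NOMO-1 (-0.47 and -0.44).

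Side by side, the changes differed between the lines for 9 of the 31 members, 7 with a higher value in NOMO-1 and 2 with a lower one, where 29.7% and 4.9% of all genes tested did so, 34.6% in all. The 7 include TNFRSF10C, whose entry rests on the filter, and without it they were 6. BTG1 differed by 1.57, ZMAT3 by 1.32, TNFRSF10C by 1.21, RPS6KA1 by 1.14, GADD45A by 1.07, RRM2B by 1.06 and SESN1 by 0.63, while DDB2 differed by -1.59 and FDXR by -1.27. Leaving TNFRSF10C aside, BTG1, ZMAT3, RPS6KA1, RRM2B, DDB2 and FDXR passed under all 3 scalings. Median-of-ratios scaling gave 5 higher and 9 lower in this contrast, beside 18.5% and 17.1% of all genes. For the 14 members that passed in neither knockdown on the deposited scale, the difference itself did not pass there either. This does not show that they act alike: its 95% interval was -2.21 to 1.52 for BTG2 and -0.65 to 0.59 for TRIAP1. With median-of-ratios scaling it passed as lower for GADD45B (-0.88), AEN (-0.86), EI24 (-0.66), TRIAP1 (-0.54) and XPC (-0.52) of the 14. MDM2 (-0.96) and GDF15 (-0.97) also passed as lower under that scaling.

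**Figure D4:**
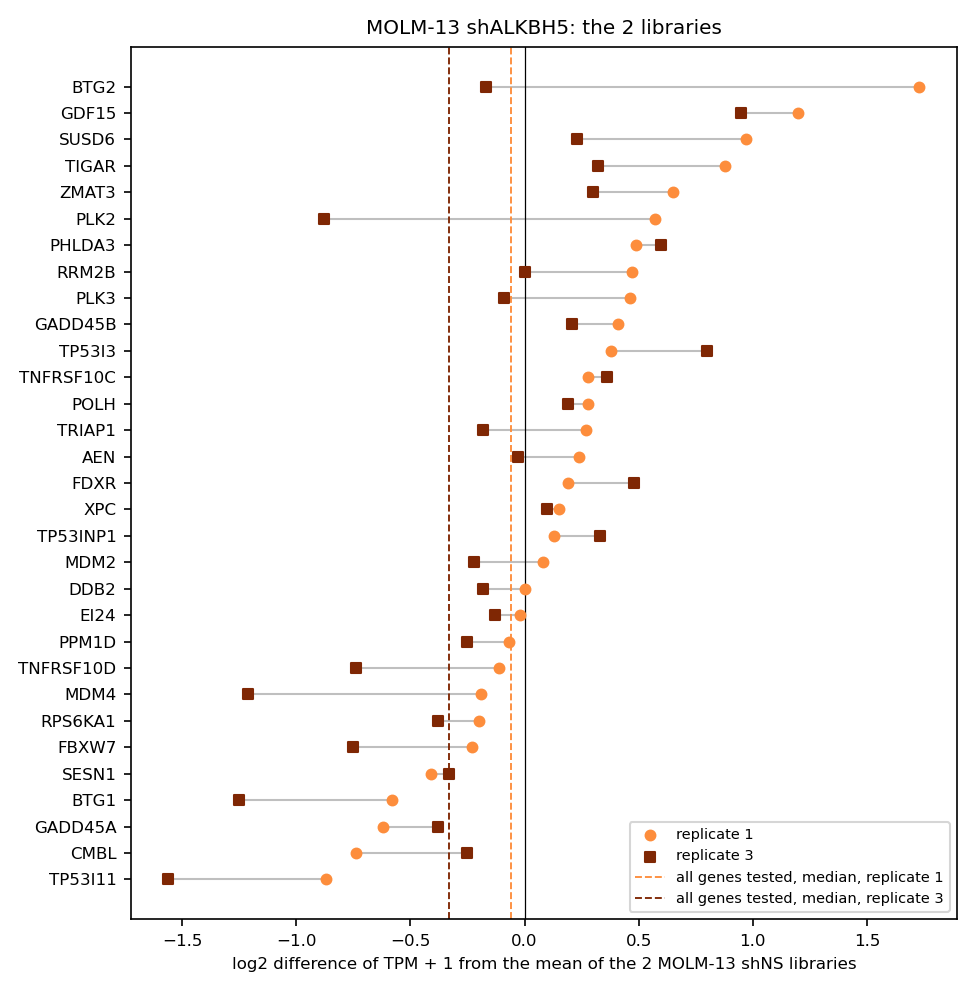
Log2 difference of TPM + 1 of each tested member in MOLM-13 shALKBH5 replicates 1 and 3 from the mean of the 2 MOLM-13 shNS libraries, with dashed lines at the median of all genes tested in each library (-0.06 and -0.33). BTG2 spans 1.73 to -0.17 and PLK2 0.57 to -0.88, while GDF15, ZMAT3, PHLDA3, SUSD6 and TIGAR lie to the right of 0 in both libraries and TP53I11 and BTG1 to the left.

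Library by library, the members' median in MOLM-13 shALKBH5 was 0.19 in replicate 1 and -0.13 in replicate 3, beside medians of all genes of -0.06 and -0.33. In NOMO-1 shALKBH5 it was 0.29 in replicate 2 and 0.23 in replicate 3, beside 0.14 and 0.17. Members above 0 were 22 of 31 in each NOMO-1 library, 19 in MOLM-13 replicate 1 and 13 in replicate 3. Of all genes, 58.9% and 61.9% were above 0 in NOMO-1 replicates 2 and 3, and 43.9% and 29.7% in MOLM-13 replicates 1 and 3.

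Of 45 further direct p53 targets, 42 were tested, and 12 rose and 7 fell in NOMO-1 while 10 rose and 12 fell in MOLM-13. The shares of all genes were 28.6% and 15% in NOMO-1 and 10.6% and 31.2% in MOLM-13. CDKN1A rose in both, to 99.5 and 88.4 TPM in NOMO-1 (1.78, adjusted p = 0.0021) and to 634 and 1089 TPM in MOLM-13 (0.75, adjusted p = 0.048). Its NOMO-1 call held in all 18 alternatives. Its MOLM-13 call ended in 12 of 18, among them quantile scaling, each line fitted alone and no intensity trend. In NOMO-1 the smallest p were those of the calcium channel subunit ORAI3 (1.19), the sestrin SESN2 (1), the TRAIL receptor TNFRSF10A (-1.25) and the noncoding RNA PVT1 (-1.38). In MOLM-13 they were those of the tetraspanin CD82 (1.83), the repressor E2F7 (-2.04), the apoptosome subunit APAF1 (-1.37) and the polymerase subunit REV3L (-1.19). Between controls, 18 of the 42 were higher in MOLM-13 and 8 in NOMO-1 (19.2% and 40.6% of all genes). TRIM22 (-5.88) and E2F7 (-3.97) were the most significant on the MOLM-13 side and PLTP (4.48) and CD82 (2.3) on the NOMO-1 side. E2F7 and EDA2R were listed at 0 in every NOMO-1 library, and KITLG was at 0.38 TPM or less there. These genes, which are among the 18, passed the filter through MOLM-13 alone, so their entry into this comparison rested on the line where they are high.

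Of 20 tested genes that control p53, 3 rose and 5 fell in NOMO-1, and 9 fell in MOLM-13, where the other 11 did not pass. Of all genes, 28.6% rose and 15% fell in NOMO-1 and 31.2% fell in MOLM-13. The damage kinase gene ATM rose in NOMO-1 (0.73) and fell in MOLM-13 (-0.63), as did TP53BP1, a repair adaptor (0.82 and -0.58). CHEK2, a checkpoint kinase (-1.09), and PPP1R13L, an inhibitor of p53 (-0.98), fell in NOMO-1. The p53 relative TP73 fell in MOLM-13 from 8.72 and 9.05 TPM to 0.68 and 0.14 TPM (-2.84, adjusted p = 0.0004), and the ubiquitin ligase RCHY1 fell by 0.96 on the log2 scale. Between controls, PPP1R13B, an activator of p53, was higher in NOMO-1 (2.03), as was TP53BP1 (1.17).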

How the data were processed

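RNA of 8 libraries in 4 groups was analysed from the deposited table of TPM, which the authors made with STAR and RSEM on GRCh38 per the submitters' processing notes (tool versions: not given in the sources used here). Every TPM column sums to 1000000 within rounding, so read depth is unknown, and a rise in abundant transcripts lowers all other values. Columns were matched to samples by line, hairpin and replicate number, and columns marked E were taken as shALKBH5.

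Genes with 1 TPM or more in 2 or more libraries (14302) entered limma (3.58.1, R 4.3.3) as log2(TPM + 1), under a model of 4 group means with an intensity trend, 4 residual and 2.29 prior degrees of freedom, and Benjamini-Hochberg adjustment over all 14302 genes. Tests are two-sided, and the spread is pooled over both lines. Median-of-ratios and quantile scaling, other pseudocounts and filters, fits by line, library weights, a replicate block and leaving out each library were alternatives. Replicate 1 minus replicate 3 correlated at r = 0.061 over genes between the 2 MOLM-13 groups, so the numbers were not taken as pairs.

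The members and lists were chosen with earlier results of these data known. Values in each library are given for members past the threshold in a knockdown or between controls, and from each of the 2 further lists the 4 genes with the smallest p per comparison are named, beside CDKN1A and ALKBH5; 1 gene that the rule names is not reported here. CDKN2A is named by this rule, and the marker genes are named as background. In simulated NOMO-1 knockdown data of 14302 genes, 42 of 50 genes with a log2 change of 2, 24 of 50 with 1 and 3 of 50 with 0.5 were recovered. There 14102 genes were left unchanged, so the adjusted threshold was harder to pass than in the data, where 43.6% of all genes passed in NOMO-1. In GENCODE 29, exons of MDM2, PLK3, XPC, POLH, TP53I3 and TP53I11 overlap an opposite-strand gene of the table, those of BTG1 a same-strand one, and TNFRSF10C and TNFRSF10D are close relatives. Their values are uncertain to that extent.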

Additional observations from a re-analysis of the deposited data

Results flagged for a closer look

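For 9 members the knockdown changed the level differently in the 2 lines, by a test of the difference itself (NOMO-1 minus MOLM-13, limma on log2(TPM + 1), n = 2 per group). The difference was 1.57 for BTG1, 1.32 for ZMAT3, 1.21 for TNFRSF10C, 1.14 for RPS6KA1, 1.07 for GADD45A, 1.06 for RRM2B and 0.63 for SESN1, and -1.59 for DDB2 and -1.27 for FDXR. On the deposited scale BTG1, GADD45A and RPS6KA1 moved in opposite directions in the 2 lines. With median-of-ratios scaling the RPS6KA1 change in MOLM-13 was 0 (adjusted p = 0.98) and neither GADD45A change passed (0.36 and -0.22). SESN1 did not pass in MOLM-13 under this scaling (-0.08), while RRM2B did (0.53). TNFRSF10C entered the test through the NOMO-1 knockdown libraries alone, where it is high. The differences of GADD45A and SESN1 did not pass with median-of-ratios scaling (0.58 and 0.14) or quantile scaling.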

How the results depend on the processing

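With 2 libraries a group, changes near 0.5 on the log2 scale passed for some members and not for others. In MOLM-13, for example, ZMAT3 passed at 0.47 and FBXW7 did not at -0.49. The simulation recovered 3 of 50 genes at 0.5, but under a threshold harder to pass than in the data. Of the calls, 6 of 16 in NOMO-1 (ZMAT3, RPS6KA1, DDB2, RRM2B, FDXR, TNFRSF10C), 0 of 9 in MOLM-13, 0 of 9 for the difference between lines and 17 of 21 between controls passed in each alternative in which the gene was tested. TNFRSF10C was not tested under the filter of 5 TPM. Its entry into the test, like that of PLK2 and CMBL between controls, rested on the group or line where it is high. The calls of these genes also passed without a filter beyond a value above 0. Counts are members higher, then lower.

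With median-of-ratios scaling they were 8 and 8 in NOMO-1, 14 and 2 in MOLM-13, 5 and 9 for the difference and 4 and 20 between controls. The shares of all genes were 23.7% and 26%, 24.1% and 26.4%, 18.5% and 17.1%, and 34.4% and 31.5%. Quantile scaling gave 8 and 7, 12 and 2, 5 and 8, and 4 and 19. Its shares of all genes were 25.6% and 23.9%, 24.4% and 25.4%, 19.9% and 15.8%, and 33.4% and 31.9%. Each line fitted alone gave 15 and 7 in NOMO-1 (41.2% and 22.6% of all genes) and 1 and 0 in MOLM-13 (2.68% and 9.09%). Library weights gave 15 and 7 in NOMO-1, 0 and 2 in MOLM-13 (3 and 3 at an unadjusted p under 0.05) and 6 and 1 for the difference. The shares of all genes with these weights were 43.4% and 24.5%, 2.67% and 17%, and 22.9% and 2.43%. Without a filter beyond a value above 0, 3 members were lower in MOLM-13, beside 18.6% of all genes.

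The replicate block gave 4 and 2 in NOMO-1, 1 and 2 in MOLM-13 and 4 and 15 between controls. The shares of all genes were 9.51% and 4.32%, 6% and 21.8%, and 35.4% and 16.8%. For the difference the members were 0 and 0 by limma (7 and 2 at an unadjusted p under 0.05). No gene of the 14302 passed there, so no call for the difference could hold in every alternative. NOMO-1 groups share replicate 3 alone, so the block rests on few pairs, and the numbers were not shown to pair the libraries.

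Leaving out 1 library gave 6 to 16 higher and 2 to 7 lower in NOMO-1, 1 to 10 and 1 to 10 in MOLM-13, 3 to 16 and 1 to 7 for the difference, and 4 to 7 and 13 to 18 between controls. The NOMO-1 calls of MDM2, TP53I11, SUSD6, BTG1, POLH and TP53INP1 ended without any 1 of the 4 NOMO-1 libraries, and those of GADD45A and GDF15 without any 1 of them but shNS replicate 3. Between controls, the XPC and POLH calls ended without any 1 of the 4 control libraries, BTG1 without either NOMO-1 one or MOLM-13 replicate 1, and FDXR without either NOMO-1 one or MOLM-13 replicate 3. In MOLM-13, the BTG1, GADD45A, SESN1, RPS6KA1, ZMAT3, TIGAR and PHLDA3 calls ended without either control library. PHLDA3 also ended without shALKBH5 replicate 3 (0.49), and GADD45A without shALKBH5 replicate 1. The MOLM-13 calls of ZMAT3, TIGAR and RPS6KA1 ended as well without any 1 of the 4 NOMO-1 libraries. SESN1 did so without either NOMO-1 shNS library, and GADD45A without either NOMO-1 shALKBH5 library. PLK2 in MOLM-13 was 0.57 without shALKBH5 replicate 3 and -0.88 without replicate 1. The BTG2 difference between lines was -1.3 without MOLM-13 shALKBH5 replicate 3 and 0.6 without replicate 1.

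Beyond these, 3 values with a call on either side reached 0 or changed sign: RPS6KA1 in MOLM-13 went to 0 (adjusted p = 0.98) and the ALKBH5 difference between lines -0.33 with median-of-ratios scaling, and POLH between controls was -0.01 with quantile scaling. Of 124 member values, 18 with median-of-ratios and 22 with quantile scaling changed sign without a call on either side. The cause was not tested.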
